A study of Mus musculus with 8 samples.

Results

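The 10 genes described here encode enzymes for the synthesis and salvage of amino sugars, which lead to the activated sugar UDP-N-acetylglucosamine (UDP-GlcNAc) and to sialic acid. They are Gfpt1, Gnpnat1, Pgm3, Uap1 and Uap1l1 of the hexosamine pathway, Nagk and Renbp of amino sugar salvage, and Gne, Nans and Nanp of sialic acid synthesis. All 10 were found by symbol among the 24063 gene symbols of the series and had counts in each library. Uap1l1 and Renbp were chosen on the DOX against DMSO comparison of these same libraries, so their difference is given as a description with no test read from it. The other 8 were chosen as enzymes of the same pathway.

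RNA was sequenced from tubuloids, which are tubule-like cultures that form in Matrigel after young kidneys are broken into fragments. The labels place the kidneys between postnatal day 7 and day 10, and the study's methods give a range that starts and ends earlier. All libraries had the genotype Pkd2fl/fl Pax8rtTA TetOCre mTmG, so the DMSO controls carried the same alleles as the treated cultures. Doxycycline (DOX) switched on Cre recombinase and so removed Pkd2, the gene for polycystin-2 that is mutated in polycystic kidney disease, and dimethyl sulfoxide (DMSO) was the vehicle. Either agent was added on day 3 for 3 days, RNA was taken on day 7 of culture, and each group held 4 libraries, numbered 15, 20, 3 and 5 for DMSO and 9, 21, 19 and 12 for DOX. The Pax8 promoter restricts the transactivator to renal epithelium, so other cells of the culture keep Pkd2, and per the study's images recombination was heterogeneous within the epithelium. The study counted cultures as replicates. Animals were not tied to libraries in the labels, so the p-values measure the spread between these libraries.

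UDP-GlcNAc is the sugar donor for N-glycans, for hyaluronan and for the single sugar that Ogt puts on nuclear and cytosolic proteins. The pathway begins with the transfer of an amide group from glutamine to a fructose phosphate, and the product is then acetylated, isomerised and joined to UTP. Sialic acid, the charged end group of many cell surface glycans, is made from UDP-GlcNAc or from its salvaged precursor N-acetylmannosamine, and in kidney it covers the foot processes of podocytes and the surface of tubules.

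The depth, as the sum of all transcript counts, lay between 63922677 and 102716313. Genes with a count numbered 13243 in DMSO 20 and 13599 in DOX 19, against 17054 to 17903 in the other 6 libraries, and the main values that rest on them are also given without them. Pkd2 itself read 4813 to 7538 normalised counts (counts divided by the DESeq2 size factor) in DMSO and 4136 to 5952 in DOX libraries, which overlapped (log2 fold change -0.31 ± 0.21 SE, adjusted p = 0.999 by DESeq2). Whether the counted part of Pkd2 lies outside the floxed part was not tested. All 6 epithelial markers (Pax8, Pax2, Epcam, Cdh1, Krt8 and Krt18) had counts in every library, with a summed level of 436 to 1758 TPM in DMSO and 533 to 1172 in DOX. The 11 proximal tubule markers summed to 8.32 to 25.6 TPM in DMSO and 11.4 to 21.5 in DOX. Slc5a2 (5.17 to 23.7 TPM) had counts in every library and Ggt1 reached 15.2 TPM, whereas Miox was at 0 in every library and Lrp2 did not exceed 0.0563 TPM. The 8 collecting duct markers summed to 150 to 764 TPM in DMSO and 223 to 484 in DOX. Krt7, a keratin that other epithelia also express, gave 137 to 560 TPM of these sums, Fxyd4 gave 4.44 to 306 TPM, and Aqp2, the water channel that defines principal cells, was at 0 in 7 libraries and at 0.029 TPM in DOX 9. Stromal markers summed to 352 to 5595 TPM in DMSO, the highest being DMSO 15, and to 874 to 1267 in DOX. Macrophage markers summed to 35.02 to 74.8 TPM in DMSO and 8.67 to 44.9 in DOX. Of these 8 only Cd14 had counts in every library (10.7 to 50.7 TPM in DMSO and 8.67 to 32.7 in DOX). Ptprc reached 22.3 TPM in DMSO 5 and Cd68 23.3 TPM in DMSO 20, whereas Csf1r did not exceed 0.431 TPM. Endothelial markers summed to 125 to 474 TPM in DMSO and 163 to 864 in DOX. Nearly all of the endothelial sum was Plvap (77.5 to 434 TPM in DMSO and 134 to 703 in DOX) and Emcn (22.1 to 63.6 and 28.5 to 160), while Cdh5 was at or under 0.170 TPM throughout. No marker of any list was called between the groups, beside 0.147% of all genes with an adjusted p, so nothing is read from that. The part of cell makeup in the values below was not tested. In these bulk libraries fewer cells of a type and less RNA per cell cannot be told apart.

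Uap1 and Uap1l1 are paralogs, and a read from one could in principle be counted for the other, so their coding sequences were compared in GENCODE M21 on GRCm38. Uap1 (Entrez 107652, chr1:170141223-170174964, minus strand) had a coding length of 1566 bases and Uap1l1 (Entrez 227620, chr2:25361489-25365682, minus strand) of 1521 bases, leaving out the stop codon. Over 1486 aligned bases 997 were identical, or 67.1%. The longest run shared without a mismatch was 15 bases, and 0 runs of the 75-base read length were shared. The 60 coding bases around that longest run are shown because they hold the longest stretch of exact identity between the paralogs. They lie in exon 6 of 11 of Uap1 (chr1:170151027-170151086) and exon 5 of 9 of Uap1l1 (chr2:25363890-25363949), and capitals mark the shared run:
Uap1: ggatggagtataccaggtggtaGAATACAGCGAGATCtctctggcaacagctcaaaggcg
Uap1l1: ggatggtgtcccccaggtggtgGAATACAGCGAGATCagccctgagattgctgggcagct

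RefSeq promoter windows, running from 250 bases before the transcript start to 50 after it on GRCm38.p6, were given for 6 of the 10 genes (7 windows, Gne having 2). No window was listed for Uap1l1, Gnpnat1, Nans and Nanp. Renbp and Pgm3 are printed because their DOX libraries all lay above their DMSO libraries, as described further on. Sequences known from stress responses were searched for on both strands: TGATGNAA of the amino acid response, TGACGTG of the unfolded protein response, the endoplasmic reticulum stress response element (ERSE), and CCACG, with which ERSE ends. Capitals mark any match:
Renbp: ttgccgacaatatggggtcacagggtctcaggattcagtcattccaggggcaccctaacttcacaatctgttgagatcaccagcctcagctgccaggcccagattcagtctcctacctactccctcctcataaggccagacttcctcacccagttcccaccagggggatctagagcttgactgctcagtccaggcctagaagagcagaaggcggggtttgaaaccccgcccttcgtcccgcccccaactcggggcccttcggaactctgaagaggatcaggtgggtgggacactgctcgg
Pgm3: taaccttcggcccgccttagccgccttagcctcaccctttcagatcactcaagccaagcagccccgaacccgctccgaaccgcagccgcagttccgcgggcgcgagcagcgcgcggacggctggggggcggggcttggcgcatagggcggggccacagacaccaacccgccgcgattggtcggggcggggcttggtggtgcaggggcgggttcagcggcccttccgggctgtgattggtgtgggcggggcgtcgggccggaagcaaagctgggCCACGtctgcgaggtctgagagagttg
The Renbp window (chrX:73930801-73931100, minus strand, 58.3% G or C) held none of the 4 motifs, and neither did that of Nagk. The Pgm3 window (chr9:86571793-86572092, minus strand, 70.3% G or C) held CCACG once, beginning at base 24 of the transcript. CCACG was also present at 2 places in Gfpt1 and once in Uap1 and in each window of Gne, and 32.8% of all 32851 windows hold it. TGACGTG was present only in Uap1 among these 7 windows, beginning at base 2 of the transcript, and 2.01% of all windows hold it. TGATGNAA (3.97% of all windows) and ERSE (0.119%) were in none of the 7. The median G or C content of all windows was 52.7%.

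The levels of the enzymes were first compared per length, as deposited TPM summed over the transcripts of each gene. By the median of the 8 libraries the order was Nagk at 108 TPM, Renbp at 72.1, Gnpnat1 at 61.7, Uap1 at 53.3, Nans at 43.8, Pgm3 at 42.4, Uap1l1 at 24.6, Gne at 16.2, Gfpt1 at 8.80 and Nanp at 1.81 TPM. The library ranges of each gene and the next in this order overlapped, except those of Gfpt1 (4.49 to 13.8 TPM) and Nanp (1.14 to 3.17 TPM). Gfpt1, whose enzyme catalyses the first and rate-limiting step of the hexosamine pathway, was thus among the least abundant of the 10 transcripts, and Nanp, the phosphatase of the last step of sialic acid synthesis, was the lowest. Gnpnat1 exceeded Uap1 in all 8 libraries although their ranges overlapped. Renbp had no library near its pooled median: it was in place 4 of the 10 in DMSO, at a median of 48.5 TPM (45.02 to 53.3), and in place 2 in DOX, at 102 TPM (90.9 to 119).

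**Figure D1:**
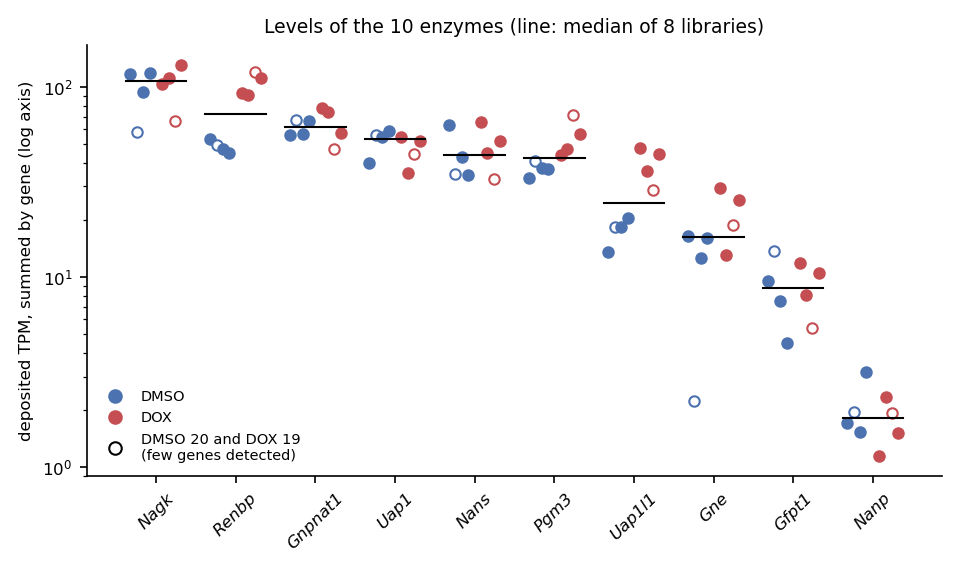
Deposited TPM summed by gene (log axis) for each of the 10 enzymes in each of 8 libraries, with DMSO in blue, DOX in red and the libraries with few detected genes, DMSO 20 and DOX 19, open. The line is the median of the 8 libraries and runs from 108 TPM for Nagk to 1.81 TPM for Nanp, and the Gne point far under its line is DMSO 20 at 2.23 TPM.

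Nagk, Renbp, Pgm3 and Gne each had 2 transcripts in the deposited tables, and the summed level counts both. The 2 transcripts held 49.8% and 50.2% of the counts of Pgm3, 49.9% and 50.1% of Nagk, 49.98% and 50.02% of Renbp, and 53.0% and 47.0% of Gne. The counts of both transcripts were identical in 3 of 8 libraries for Renbp, 1 for Nagk, 1 for Gne and 0 for Pgm3. Most reads of these genes thus seem to appear in both rows, in which case the sums overstate their number. With the most counted transcript alone the median was 61.7 TPM for Gnpnat1, 54.1 for Nagk, 53.3 for Uap1, 43.8 for Nans, 35.5 for Renbp, 24.6 for Uap1l1, 21.0 for Pgm3, 8.80 for Gfpt1, 6.02 for Gne and 1.81 for Nanp. The places of Nagk, Renbp, Pgm3 and Gne in the order therefore depend on how isoforms are summed.

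The comparison of DOX with DMSO asks which transcripts differed after doxycycline was given to switch on Cre and remove Pkd2. No library had doxycycline without the Cre alleles, so effects of doxycycline, of Cre and of Pkd2 loss cannot be told apart. Of the 10 enzymes, 2 were called higher (Uap1l1 and Renbp) and 0 lower, where a call needs a DESeq2 adjusted p no higher than 0.05 and 1.5-fold or more. Among all 17011 genes with an adjusted p, 25 were called, or 0.147%, and 14 were called higher, or 0.0823%. Since both called enzymes were chosen on this comparison, nothing is read from that difference in share. By the quasi-likelihood test of edgeR 0 of the 10 were called, as were 0 of all 15562 genes it tested (0%, smallest adjusted p = 0.999). At an unadjusted p under 0.05, DESeq2 had 3 of the 10 (Uap1l1, Renbp and Pgm3) and 5.28% of all genes, and edgeR had 3 of the 10 and 476 of its 15562 genes. The same 3 enzymes were the ones whose 4 DOX libraries all lay above their 4 DMSO libraries. That was so for 1.66% of all tested genes, and 2.75% lay apart in either direction. As Uap1l1 and Renbp are among these 3, nothing is read from these shares either. The median difference over the 10 enzymes was 0.015 on the log2 scale, with 5 above 0 and 5 below, beside a median of -0.069 over all genes tested.

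**Figure D2:**
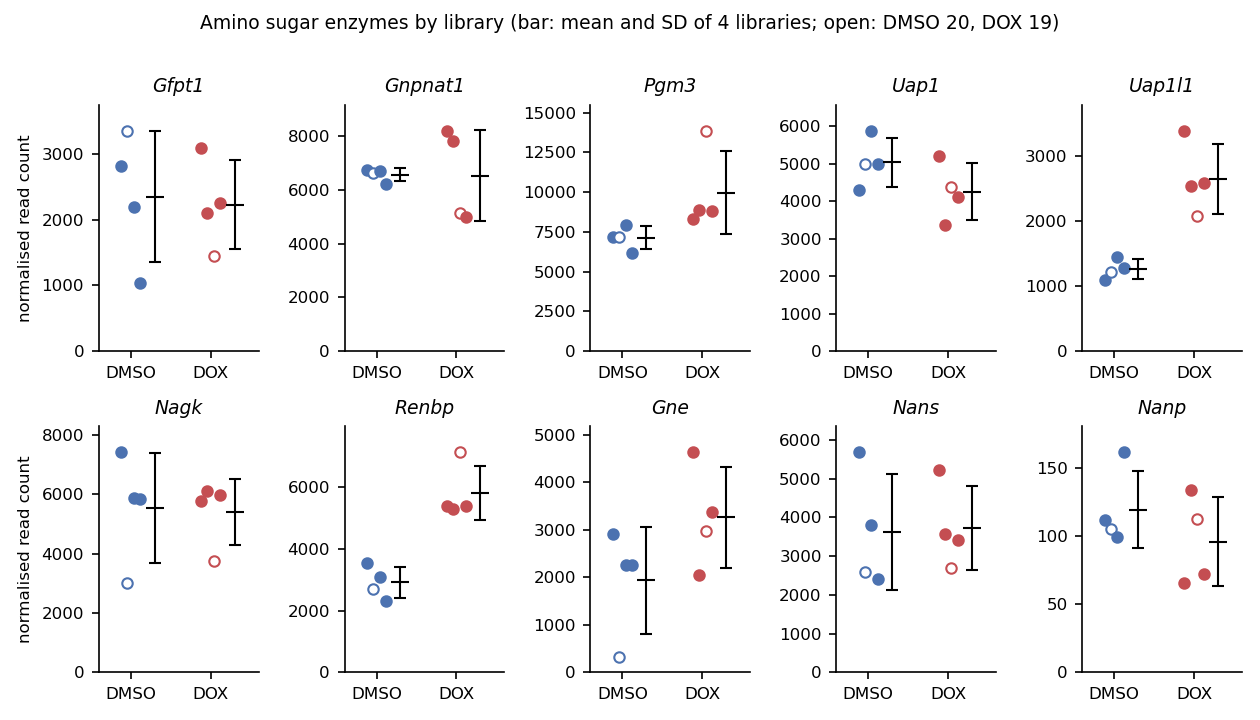
Normalised read counts of the 10 enzymes by library (linear axes from 0), with the mean and SD of 4 libraries beside the points and DMSO 20 and DOX 19 open. The groups lie apart for Uap1l1, Renbp and Pgm3 and overlap for the other 7 enzymes, and the open point lies outside the filled ones of its group for Gfpt1, Gne and Nagk in DMSO and for Gfpt1, Uap1l1, Nans, Nagk, Renbp and Pgm3 in DOX.

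At the final step of UDP-GlcNAc synthesis Uap1l1 was called and Uap1 was not, a contrast between paralogs that was not itself tested. Uap1 encodes the pyrophosphorylase that joins UTP to the acetylated sugar phosphate, and Uap1l1 encodes its close relative, whose role is less well defined. Uap1l1 read 1087, 1214, 1452 and 1282 normalised counts in DMSO 15, 20, 3 and 5, and 3385, 2542, 2073 and 2588 in DOX 9, 21, 19 and 12. The lowest DOX library, DOX 19, was above the highest DMSO library. The means were 1258 ± 152 and 2647 ± 544 (SD, n = 4 each), a 2.10-fold difference with a 95% interval of 1.57 to 2.83-fold (log2 1.07 ± 0.22 SE). These are the values that chose the gene, with an adjusted p of 0.00173 by DESeq2 and 0.999 by edgeR. Uap1 read 4295, 4992, 5871 and 4983 in DMSO and 5195, 3357, 4367 and 4103 in DOX, so the groups overlapped. Its difference was -0.24 ± 0.20 on the log2 scale (adjusted p = 0.999 by DESeq2), with a 95% interval from -0.64 to 0.15.

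Per length, Uap1l1 made up 25.5%, 24.7%, 25.0% and 25.8% of the summed TPM of the pair in DMSO 15, 20, 3 and 5. In DOX 9, 21, 19 and 12 it made up 46.8%, 50.6%, 39.1% and 46.0%. The share was thus nearly constant among DMSO libraries, including the one with few detected genes, and lay higher and more widely spread in DOX (25.3% ± 0.469 against 45.6% ± 4.79, SD, n = 4 each). Uap1l1 remained below Uap1 in 7 of the 8 libraries, and only in DOX 21 did its level (36.1 TPM) pass that of Uap1 (35.3 TPM). Without DMSO 20 and DOX 19 it was 25.4% ± 0.377 and 47.8% ± 2.44 (SD, n = 3 each). This share uses the comparison that chose Uap1l1 and has no test.

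**Figure D3:**
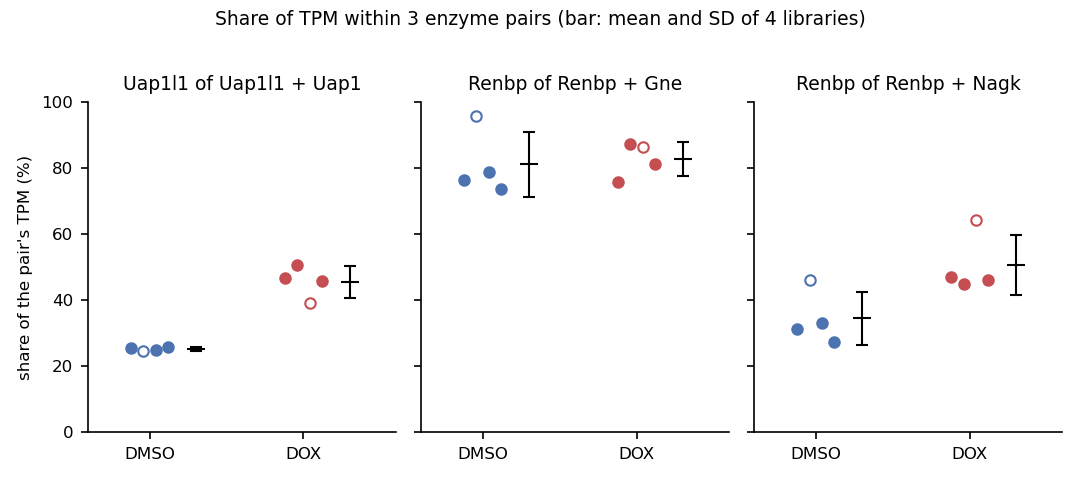
Share of the summed TPM of an enzyme pair, in percent, that was Uap1l1 beside Uap1, Renbp beside Gne and Renbp beside Nagk, for each of 4 DMSO and 4 DOX libraries with mean and SD. The Uap1l1 share lies between 24.7% and 25.8% in DMSO and between 39.1% and 50.6% in DOX, whereas the shares of the other pairs overlap between the groups.

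The enzymes before that step did not pass the threshold. Gfpt1 (chr6:87042846-87092207) read 2821, 3356, 2196 and 1038 normalised counts in DMSO and 3099, 2105, 1446 and 2265 in DOX, so the DMSO libraries alone spanned a wider range than the DOX ones. Its difference was -0.078 ± 0.42 on the log2 scale (adjusted p = 0.999 by DESeq2) and changed sign when DMSO 15, DMSO 20 or DOX 19 was left out. Gnpnat1 (chr14:45376421-45388987), the acetyltransferase of the second step, was the most even of the 10 in DMSO, at 6732, 6621, 6716 and 6220, a coefficient of variation of 3.65%. In DOX it read 8195, 7809, 5123 and 5007, with 2 libraries above and 2 below all DMSO libraries, and the difference was -0.0086 ± 0.23 (adjusted p = 0.999 by DESeq2). Its 95% interval reached from -0.46 to 0.45. Gnpnat1 overlaps Styx on the other strand over 12567 bases, and the counting strand was not given in the sources used here, but Styx had 2390 counts over the 8 libraries beside 53946 for Gnpnat1.

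Pgm3 (chr9:86552476-86571878), the mutase that supplies the substrate of Uap1, read 7162, 7170, 7947 and 6194 in DMSO 15, 20, 3 and 5. In DOX 9, 21, 19 and 12 it read 8330, 8862, 13845 and 8799. All DOX libraries were above all DMSO libraries, and DOX 19 was far above the other 3, which lay between 8330 and 8862. The difference was 0.48 ± 0.23 on the log2 scale, or 1.40-fold (95% interval 1.02 to 1.91), with an unadjusted p of 0.0359 and an adjusted p of 0.876 by DESeq2. It was 0.29 without DOX 19 (adjusted p = 1.0). Pgm3 overlaps Dop1a on the other strand over 3448 bases, and Dop1a was not analysed here.

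**Figure D4:**
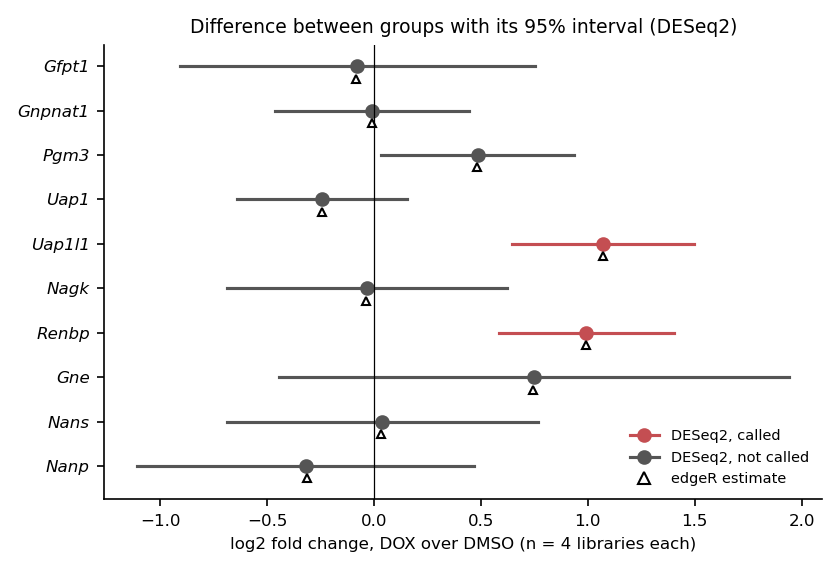
Log2 fold change of DOX over DMSO for the 10 enzymes with its 95% interval by DESeq2 (called genes in red) and the edgeR estimate as open triangles. The intervals of Uap1l1 and Renbp, which were chosen on this comparison, lie above 0, and that of Pgm3 runs from 0.032 to 0.94. Those of the other 7 span 0, the widest being Gne.

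Of the salvage enzymes Renbp was called and Nagk was not. Renbp (Entrez 19703, chrX:73922121-73930850, minus strand) encodes the epimerase that interconverts N-acetylglucosamine and N-acetylmannosamine, first known as renin binding protein. It read 3537, 2717, 3091 and 2329 normalised counts in DMSO 15, 20, 3 and 5, and 5408, 5292, 7134 and 5413 in DOX 9, 21, 19 and 12. The groups did not overlap, 3 DOX libraries lay close together, and DOX 19 lay above them. The means were 2918 ± 516 and 5812 ± 883 (SD, n = 4 each), a 1.99-fold difference with a 95% interval of 1.498 to 2.65-fold (log2 0.99 ± 0.21 SE). These values chose the gene (adjusted p = 0.00323 by DESeq2 and 0.999 by edgeR). Without DOX 19 the log2 difference was 0.89 and the call was lost (DESeq2 adjusted p = 0.0569), and without both libraries with few detected genes it was 0.86 (adjusted p = 0.138). Renbp lies on the X chromosome, and by Xist and Y-linked transcripts 1 library of each group (DMSO 15 and DOX 21) was taken as male, with Xist at 0 and 4.20 normalised counts and 4 Y-linked genes summing to 11862 and 12273, against Xist of at least 3936 and Y-linked sums of at most 8.96 in the other 6. Fitted with sex as a covariate, the log2 difference was 1.002 (adjusted p = 0.00586 by DESeq2).

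Nagk (chr6:83794983-83802556), the kinase that returns free N-acetylglucosamine to the pathway, read 7412, 3003, 5894 and 5844 in DMSO and 5776, 6130, 3763 and 5981 in DOX. DMSO 20 and DOX 19 were the lowest of their groups, and the other 6 libraries lay between 5776 and 7412. The difference was -0.033 ± 0.34 on the log2 scale (adjusted p = 0.999 by DESeq2, 95% interval -0.69 to 0.62). Renbp made up 34.5% ± 8.15 of the summed TPM of Renbp and Nagk in DMSO and 50.6% ± 9.13 in DOX (SD, n = 4 each). The ranges, 27.4% to 46.2% and 45.03% to 64.3%, overlapped through DMSO 20. Without DMSO 20 and DOX 19 they were 27.4% to 33.2% and 45.03% to 47.0% and did not overlap (30.6% ± 2.94 and 46.1% ± 1.01, SD, n = 3 each).

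None of the 3 enzymes of sialic acid synthesis was called, and all 3 had overlapping groups. Gne (chr4:44034075-44084177), the bifunctional epimerase and kinase that commits UDP-GlcNAc to sialic acid, read 2914, 323, 2256 and 2263 normalised counts in DMSO and 4630, 2057, 2986 and 3373 in DOX. DMSO 20 stood 14.3 times below DOX 9, and the ranges overlapped. The difference was 0.75 ± 0.61 on the log2 scale (adjusted p = 0.999 by DESeq2) and 0.39 without DMSO 20 (adjusted p = 0.906). Renbp made up 81.2% ± 9.92 of the summed TPM of Renbp and Gne in DMSO and 82.8% ± 5.25 in DOX (SD, n = 4 each), and the highest share of all was that of DMSO 20 at 95.7%. Without DMSO 20 and DOX 19 the share was 76.3% ± 2.59 and 81.6% ± 5.74 (SD, n = 3 each), with overlapping ranges.

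Nans (chr4:46489329-46503438), which condenses the mannosamine phosphate into the sialic acid backbone, read 5677, 2601, 3817 and 2417 in DMSO and 5232, 3564, 2683 and 3420 in DOX. The highest and the lowest of all 8 values were both DMSO libraries, and the difference was 0.038 ± 0.37 (adjusted p = 0.999 by DESeq2). Nanp (chr2:151029685-151039379) read 111, 105, 99.6 and 161 in DMSO and 65.4, 133, 113 and 71.8 in DOX, with a difference of -0.32 ± 0.40 (adjusted p = 0.999 by DESeq2). Nanp had 865 counts over the 8 libraries and lies within Ninl on the same strand (9695 shared bases), for which 7119 were counted, so how shared reads were assigned is uncertain. Nans overlaps Trim14 on the other strand, with 30935 and 2323 counts.

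The genes beside the chosen loci were examined next. On the lower-coordinate side of Uap1l1 lie Dpp7 (5099 bases away, log2 difference 0.38 ± 0.23) and Man1b1 (9275 bases, 0.23 ± 0.19), and on the other side Sapcd2 (6352 bases, -0.88 ± 1.76) and Entpd2 (30191 bases, -0.99 ± 1.74), each with an adjusted p of 0.999 by DESeq2. Beside Renbp lie Naa10 (176 bases away, -0.22 ± 0.20) and Hcfc1 (11941 bases, -0.27 ± 0.26), both with an adjusted p of 0.999, and Arhgap4 (10775 bases), to which DESeq2 gave no p. Irak1, 83063 bases away, had all DOX libraries (35010 to 40915 normalised counts) above all DMSO libraries (23022 to 33324), but its difference of 0.38 ± 0.18 had an adjusted p of 0.845 by DESeq2. None of the 8 neighbours was called, beside 0.147% of all genes with an adjusted p, so nothing is read from that.

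Likeness across libraries was measured by Pearson's r of log2(normalised count + 1) over the 8 libraries, among 13248 genes with a mean of at least 100 normalised counts. All genes share these libraries and their depth, and a gene that differs between the groups gives a high r by that alone, so r after subtraction of each group's mean is given too. The genes most like Uap1l1 were Tpp1, a lysosomal peptidase (r = 0.98, and 0.88 with group means removed), Slc3a2, the heavy chain of amino acid exchangers (0.98 and 0.88), Nupl2 (0.95 and 0.66), Heatr2 (0.93 and 0.49) and Ostm1 (0.93 and 0.66). Slc3a2 read 20618 to 24914 normalised counts in DMSO and 31157 to 51058 in DOX. The genes most like Renbp were Nrbp1 (0.96 and 0.84), Ttc7b (0.96 and 0.67), Cnpy3 (0.96 and 0.65), Zhx2 (0.96 and 0.63) and Ubr2 (0.95 and 0.80). Without DMSO 20 and DOX 19 the r of these 10 genes lay between 0.93 and 0.98, and with group means removed it ranged from 0.33 for Zhx2 to 0.97 for Nrbp1. All 10 had every DOX library above every DMSO library, beside 1.66% of all tested genes. Slc3a2, Heatr2, Ttc7b, Cnpy3 and Zhx2 were among the called genes, beside 0.147% of all tested genes. The 10 were picked for likeness to genes whose groups lay apart, so nothing is read from these counts.

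The r between members was computed with and without DMSO 20 and DOX 19, the latter after the data had been seen. Uap1l1 and Renbp had an r of 0.79 over the 8 libraries and -0.53 with group means removed, and DOX 19 was the lowest DOX library for Uap1l1 and the highest for Renbp. Over the other 6 libraries these were 0.86 and -0.24. Pgm3 and Renbp had 0.86, and 0.78 with group means removed, and 0.90 and 0.70 over the 6. Pgm3 and Uap1l1 had 0.51 and -0.59, and 0.77 and 0.027 over the 6, so that the negative value rests on these libraries. Uap1 and Uap1l1 had -0.31, and 0.63 with group means removed, and -0.25 and 0.94 over the 6. Nagk and Gne, both low in DMSO 20, had 0.71 and 0.80, and over the 6 only -0.057 and 0.13. With 3 libraries a group these values are weak descriptions.

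The rest of the amino sugar pathway was covered by 64 other genes in 5 lists ordered by role. All 64 were in the tables, St8sia3 had no count in any library and 59 had an adjusted p. None of the 59 was called by DESeq2 (smallest adjusted p = 0.167) or by edgeR, beside 0.147% and 0% of all genes. An unadjusted DESeq2 p under 0.05 was found for 11, 7 higher and 4 lower, and 9 had one by edgeR. That share is to be read beside the 5.28% of all genes. The difference lay above 0 for 35 and below for 24, with a median of 0.14 on the log2 scale beside -0.069 over all genes tested. In 3 of the 59 all DOX libraries lay above all DMSO libraries, beside 1.66% of all genes tested, and in 2 below, beside 2.75% for both directions together.

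Among 7 other hexosamine enzymes the median difference was -0.062. Amdhd2, the deacetylase that returns the acetylated sugar phosphate to the earlier intermediate, read 1237 to 1500 normalised counts in DMSO and 1665 to 2418 in DOX (0.57 ± 0.18, adjusted p = 0.259 by DESeq2). Its groups did not overlap, and it was not called. The most abundant of this list, Ugp2, which makes UDP-glucose, had a mean of 121 TPM and a difference of -0.13 ± 0.26.

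Of 17 genes that use UDP-GlcNAc, 5 lay above 0 and 12 below, with a median of -0.32. Alg13, a subunit of the transferase that adds the second sugar of the N-glycan precursor, read 1222 to 2355 in DMSO and 577 to 1064 in DOX (-1.01 ± 0.33, adjusted p = 0.280 by DESeq2). Slc35a3, the carrier of UDP-GlcNAc into the Golgi, had a difference of -0.46 ± 0.22 (adjusted p = 0.905) and Mgat4b, a branching enzyme of N-glycans, of 0.65 ± 0.26 (adjusted p = 0.673), with overlapping groups in both. Mgat1, which starts the complex N-glycans, had the highest mean level of this list at 142 TPM and a difference of 0.35 ± 0.25.

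Of 9 tested genes of sialic acid activation and turnover, 8 lay above 0 and 1 below (median 0.31). Casd1, which acetylates sialic acid, had a difference of 0.57 ± 0.28 (adjusted p = 0.885 by DESeq2), and the Golgi carrier Slc35a1, the most abundant at a mean of 97.8 TPM, of 0.14 ± 0.30. Among 16 tested sialyltransferases 11 lay above 0 (median 0.28). St6galnac3, which adds sialic acid to the inner sugar of glycan cores, read 1239 to 2315 in DMSO and 2554 to 6750 in DOX (1.27 ± 0.37, adjusted p = 0.167 by DESeq2). St8sia1, the synthase of the ganglioside with a pair of linked sialic acids, read 272 to 542 in DMSO and 688 to 1340 in DOX (1.22 ± 0.37, adjusted p = 0.257). St8sia2, which makes polysialic acid, lay the other way with overlapping groups (-1.07 ± 0.54, adjusted p = 0.942), and St6galnac6, the most abundant at a mean of 96.9 TPM, had a difference of 0.22 ± 0.43.

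Of 10 genes of lysosomal breakdown, 8 lay above 0 and 2 below (median 0.35). Hexa, the alpha subunit of beta-hexosaminidase, had a difference of 0.72 ± 0.35 (adjusted p = 0.887 by DESeq2) and Naglu, which removes N-acetylglucosamine from heparan sulfate, of 0.60 ± 0.27 (adjusted p = 0.830). Aga, an amidase of glycoprotein breakdown, was the most abundant of all 64 at a mean of 179 TPM, with a difference of 0.10 ± 0.23. The groups of all 3 overlapped.

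**Figure D5:**
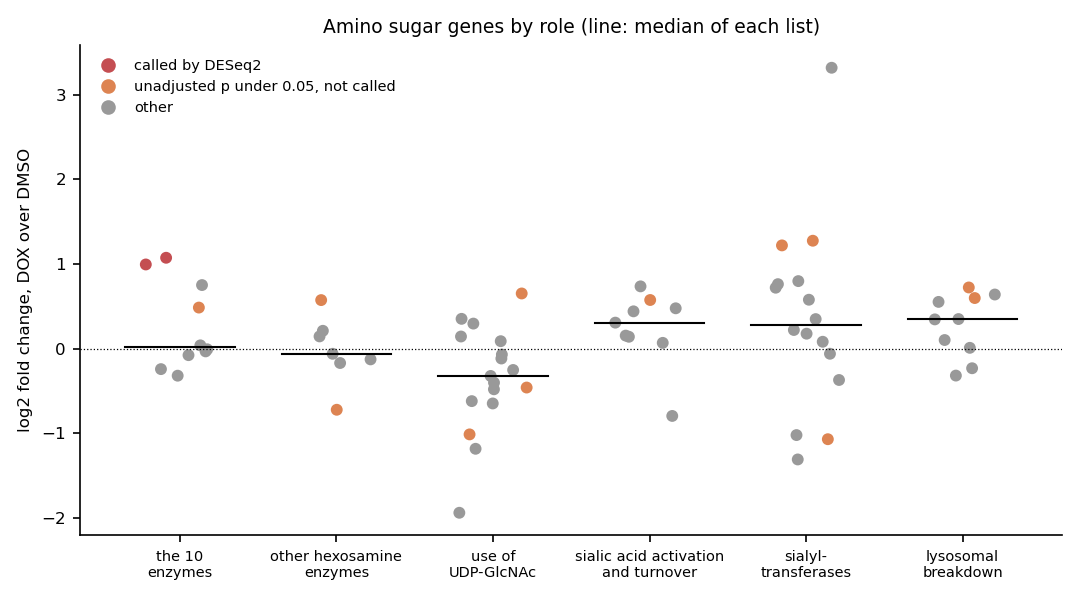
Log2 fold change of DOX over DMSO by DESeq2 for the 10 enzymes and for the tested genes of 5 lists by role, each point a gene, with the median of each list as a line and genes under an unadjusted p of 0.05 in orange. The 2 red points are Uap1l1 and Renbp, no gene of the other lists was called, and the list medians run from -0.32 for the use of UDP-GlcNAc to 0.35 for lysosomal breakdown.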

How the data were processed

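Titles gave the groups, 4 DOX and 4 DMSO libraries, which were not paired because no library number occurs in both. The authors made SMART-Seq v4 libraries with poly-A selection, sequenced 75-base read pairs and aligned them with STAR to mm10. The submitters' processing notes also list featureCounts and DESeq2, with versions and strand setting not given in the sources used here. The deposited counts are whole reads for each RefSeq transcript. The deposited TPM and FPKM were made by the authors from those counts and transcript lengths. FPKM was not used further.

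Counts and TPM were summed by gene symbol. Judged by their near-equal counts, reads that lie in several isoforms seem to be in each isoform's row, in which case sums overstate reads. DOX was compared with DMSO by the DESeq2 1.42.0 Wald test (R 4.3.3) over all genes, with median-of-ratios size factors, the Cook filter on, alpha 0.1 for independent filtering and p-values adjusted after Benjamini and Hochberg. Calls required an adjusted p no higher than 0.05 and 1.5-fold or more. edgeR 4.0.16 (quasi-likelihood) stands beside it, and limma 3.58.1, TMM size factors, other filters, thresholds and covariates, 1 transcript per gene and leaving out libraries were alternatives. The fits were tested on simulated data. The coding sequences of Uap1 and Uap1l1 were aligned globally. Intervals cover the spread between libraries. Gene coordinates and promoter windows are RefSeq on GRCm38.p6, the assembly of mm10, and the exons of Uap1 and Uap1l1 are GENCODE M21.

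The 10 enzymes, the 64 pathway genes and the marker lists were chosen with earlier results of these data known. Genes named beside the 10 were the most abundant of each list and those called or with an unadjusted p under 0.05, the 2 nearest counted genes on each side of Uap1l1 and Renbp, and the 5 most like each. 1 gene of these lists is not reported by name here.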

Additional observations from a re-analysis of the deposited data

Results flagged for a closer look

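In 20 groups of 4 libraries (10 enzymes in DMSO and in DOX) the highest or lowest log2 normalised count was set against the others by Dixon's ratio of its gap to the whole range, with the critical value at the 95% level. Chance gives about 1 such library in 20 groups, and 4 were found, each in DMSO 20 or DOX 19, the libraries with counts for the fewest genes. In DOX 19, Renbp stood above the other DOX libraries (7134 normalised counts, ratio 0.9245), as did Pgm3 (13845, ratio 0.8781), while Nagk stood below them (3763, ratio 0.8782). In DMSO 20, Gne stood below the other DMSO libraries (323 normalised counts, ratio 0.8836). The part of low gene detection in these values was not tested. With low detection as a covariate the log2 difference was 0.98 for Renbp (DESeq2 adjusted p = 0.0175), 0.45 for Pgm3 (0.657) and 1.05 for Gne (0.719).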

How the results depend on the processing

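Of the 10 enzymes 2 were called, and 0 were called by edgeR, 0 by limma-voom and 1 without both libraries with few detected genes. Leaving out each library in turn gave 1 to 2, the 1 being without DOX 19, where Renbp was lost. Uap1l1 was called in all 18 alternative DESeq2 settings (log2 0.93 to 1.18, adjusted p 0.000595 to 0.0262) and Renbp in 16 of 18 (0.86 to 1.10, adjusted p 0.000235 to 0.138). The settings with a looser adjusted p or no minimum fold reuse the main fit, so they could not lose a call. Both genes were chosen on this comparison, so these tallies are a description and not support. Pgm3 (0.29 to 0.56), Gne (0.39 to 1.05), Uap1 (-0.35 to -0.14) and Nanp (-0.52 to -0.14) kept their sign and were called in none of the 20 alternatives. Of the pathway genes 0 were called, 1 (St8sia1) with low detection as a covariate, and 0 to 1 leaving out each library in turn: St8sia1 without DMSO 20, St6galnac3 without DOX 9 and Amdhd2 without DOX 21. Differences near 0 changed sign and were never called. Gfpt1 was 0.040 by limma-voom, 0.31 without both libraries with few detected genes and -0.32 to 0.14 leaving out each library. Gnpnat1 was 0.00056 with TMM size factors, 0.12 without both libraries and -0.14 to 0.10 leaving out each library. Nagk was 0.0045 by limma-voom, 0.0068 with low detection as a covariate and -0.24 to 0.14 leaving out each library, and Nans -0.17 to 0.34. Apart from fewer libraries, the cause was not tested. No paired analysis was possible because the groups share no library numbers.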
